A study of Cercocebus atys with 16 samples.

Results

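The T cell receptor signals through the CD3 complex, made of the chains encoded by CD3D, CD3E, CD3G and CD247, and binds its ligand beside a coreceptor, CD4 or the CD8 dimer encoded by CD8A and CD8B. The ligand-binding chains are an alpha and beta pair or a gamma and delta pair, and TRDC encodes the constant part of the delta chain. The surface proteins CD3, CD4 and CD8 were the ones used to isolate the cells studied here, so these 8 genes describe, at the RNA level, the identity of the double-negative T cells and what 4 hours of receptor stimulation did to it. Probes were taken where the array's gene name or the bracketed symbol of its description was 1 of the 8 symbols. That rule found 6 probes of 5 genes (CD3D, CD3E, CD3G, CD247 and CD4, which had a pair). A further 5 probes carried no such symbol and were found by the wording of their description alone: 1 for CD8A, 1 for CD8B, a pair for the T cell receptor delta chain (TRDC), and a second CD247 probe described as similar to CD3Z, an older name of CD247. These 11 probes, of 43603 on the array, are described below, and the 5 found by wording are named as such.

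The cells came from 4 sooty mangabeys (Cercocebus atys), a natural host of SIV, all infected with SIV. The labels give CD4 status as Normal for FNV and FKN and as Low for FBR and FTV. Double-negative T cells (CD3+CD4-CD8-) were obtained from blood mononuclear cells with magnetic beads, by taking out CD4-bearing cells, then cells with CD8 or CD16, and then selecting for CD3, to a stated purity above 98%. After a night of rest they were kept without stimulus or given, over 4 hours, anti-CD3 (3 mg/ml in the labels) and anti-CD28 (1 mg/ml). Each animal contributed 4 arrays with 2 colours: stimulated against unstimulated RNA in each dye orientation, and each RNA against itself (self-self). The selection acted on surface protein, and anti-CD3 binds the complex itself, whereas the arrays measured RNA. The probes follow rhesus macaque sequence, and mismatches with the RNA of the mangabey can weaken a probe's signal. Nothing in the labels says that the 2 RNAs of an animal came from more than 1 culture each, so p-values measure the spread between 4 animals.

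The response of an animal is the log2 ratio of stimulated over unstimulated signal, averaged over its 2 dye orientations; a response of 1 is a doubling. A level is the log2 signal of a condition after normalisation, averaged over 4 channels, and levels of different probes were not set against each other. A probe was called where the Benjamini-Hochberg adjusted p of limma, over all 27493 probes tested, was under 0.05. On the array at large 40.3% of tested probes passed, 19.9% as higher and 20.4% as lower, so passing is common in this comparison. Of the 10 member probes tested, 7 passed, of which 5 rose and 2 fell. CD247 and TRDC each enter these counts with a pair of probes. Of the 5 tested probes found by the rule, 3 passed, of which 2 rose and 1 fell. The median response was 0.26 over the 10 member probes and -0.01 over all tested probes. The 11th, a CD4 probe, was not well above background in any channel. On the FNV stimulated self-self array 33.3% and 37.6% of spots were well above background in the 2 channels, against 52.0% to 65.0% in all other channels. All arrays of FNV were scanned apart from the other 12 and carry an older edition of the probe annotation, so what sets FNV apart cannot be told apart from that scan.

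The sequences of 5 probes are shown, for what they read: a pair that covers tyrosine signalling motifs of the complex, the CD4 probe that disagrees with its partner, and a CD8B and a TRDC probe. An immunoreceptor tyrosine-based activation motif (ITAM), the stretch that is phosphorylated when the receptor is engaged, holds a pair of tyrosine motifs, each a tyrosine, 2 residues of any kind, and a leucine or isoleucine. Capitals mark a tyrosine motif in DNA: any codon for tyrosine, any 6 bases, then any codon for leucine or isoleucine, searched in any frame on the probe's strand only. In the other 3 no capitals are used. The probes for CD3D, CD3E, CD8A, CD4 probe 1, CD247 probe 2 and TRDC probe 1 are not shown.
CD247 probe 1: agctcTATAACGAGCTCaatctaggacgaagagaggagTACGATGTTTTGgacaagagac
CD3G: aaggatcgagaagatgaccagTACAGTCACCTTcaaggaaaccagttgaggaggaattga
CD4 probe 2: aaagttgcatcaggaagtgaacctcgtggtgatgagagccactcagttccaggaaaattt
CD8B: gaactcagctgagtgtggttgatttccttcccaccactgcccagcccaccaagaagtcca
TRDC probe 2: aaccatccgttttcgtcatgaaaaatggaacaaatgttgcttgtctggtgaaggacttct

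The CD247 probe held 2 tyrosine motifs in 1 frame, 6 to 8 codons apart as in a whole ITAM. Of all 43603 probes, 49 (0.11%) held such a pair, which contains the single motif, and 7914 (18.2%) held at least 1 tyrosine motif. The CD3G probe held 1. In the rhesus build rheMac2, to which the files place the probes, CD247 probe 1 lies at chr1:197172156-197172908 on the minus strand. Its 60 bases are spread over 753, so the alignment is split, as it is for a probe that spans an intron. CD247 probe 2 lies at chr1:197164844-197164903. CD3E (chr14:116697773-116697832), CD3D (chr14:116719784-116719843, minus strand) and CD3G (chr14:116733562-116733621) are neighbours, with 21951 bases between the CD3E and CD3D probes and 13718 between those of CD3D and CD3G. CD4 probe 2 (chr11:6997275-6998054) is split over 780 bases and CD4 probe 1 (chr11:7001677-7001736) lies 3622 bases further on. CD8A (chr13:88397517-88397576) and CD8B (chr13:88464288-88469284, split) lie on the minus strand, and TRDC probes 1 and 2 lie at chr7:85273772-85273831 and chr7:85272464-85272523. The files give no exon or UTR annotation.

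The chains of the CD3 complex did not move as a unit. CD3D and CD3G rose, CD247 fell on both of its probes, and CD3E did not pass the test. CD3D, whose product pairs with the epsilon chain, responded at 1.04 in FNV, 0.63 in FKN, 0.61 in FBR and 1.30 in FTV. All 4 animals were above 0, FKN and FBR lay close together, and FTV was highest. The mean was 0.89 ± 0.33 (SD, n = 4 animals), a 1.86-fold rise, with an adjusted p of 0.00583 by limma.

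CD3G, which encodes the gamma chain of the complex (not the gamma chain of the T cell receptor), responded at 0.83 in FNV, 0.18 in FKN, 0.28 in FBR and 0.74 in FTV. The animals fell into a higher pair, FNV and FTV, and a lower pair, and each pair held 1 animal of each CD4 status. The mean was 0.51 ± 0.33 (SD, n = 4), 1.42-fold, with an adjusted p of 0.0316 by limma. The call was lost, at 0.40 with a limma adjusted p of 0.0519, without FNV. It was also lost without FBR (limma adjusted p = 0.0668) and without FTV (limma adjusted p = 0.109). With all 4 animals it was lost with the scanner software's ratio (limma adjusted p = 0.0698) and median centring (0.0554 by limma). The authors' deposited table gave a limma adjusted p of 0.0925. Of 14 alternatives of processing or animals, 5 kept the call.

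CD3E encodes the epsilon chain, which pairs with the delta and the gamma chain. Its response was -0.20 in FNV, -0.37 in FKN, -0.14 in FBR and -0.10 in FTV. All 4 animals were below 0, and the mean of -0.20 ± 0.12 (SD, n = 4) had an adjusted p of 0.0592 by limma. Its 95% interval ran from -0.37 to -0.04.

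CD247, the zeta chain that carries most of the ITAMs of the complex, fell on both probes. Probe 1 responded at -0.27 in FNV, -0.26 in FKN, -0.49 in FBR and -0.40 in FTV, a mean of -0.35 ± 0.11 (SD, n = 4) with an adjusted p of 0.0103 by limma. Without FBR its limma adjusted p was 0.054. Probe 2, found by its wording, responded at -0.63, -0.57, -0.75 and -0.85 in the same order. Its mean was -0.70 ± 0.13 (SD, n = 4), a 1.63-fold fall with a limma adjusted p of 0.00157. In these values the CD4-low animals FBR and FTV had the larger falls on either probe. In the authors' deposited table that order held for probe 2 but not for probe 1, where FNV (-0.506) fell more than FTV (-0.424). Neither probe passed limma's test of the response by CD4 status, so the order is a description only.

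**Figure D1:**
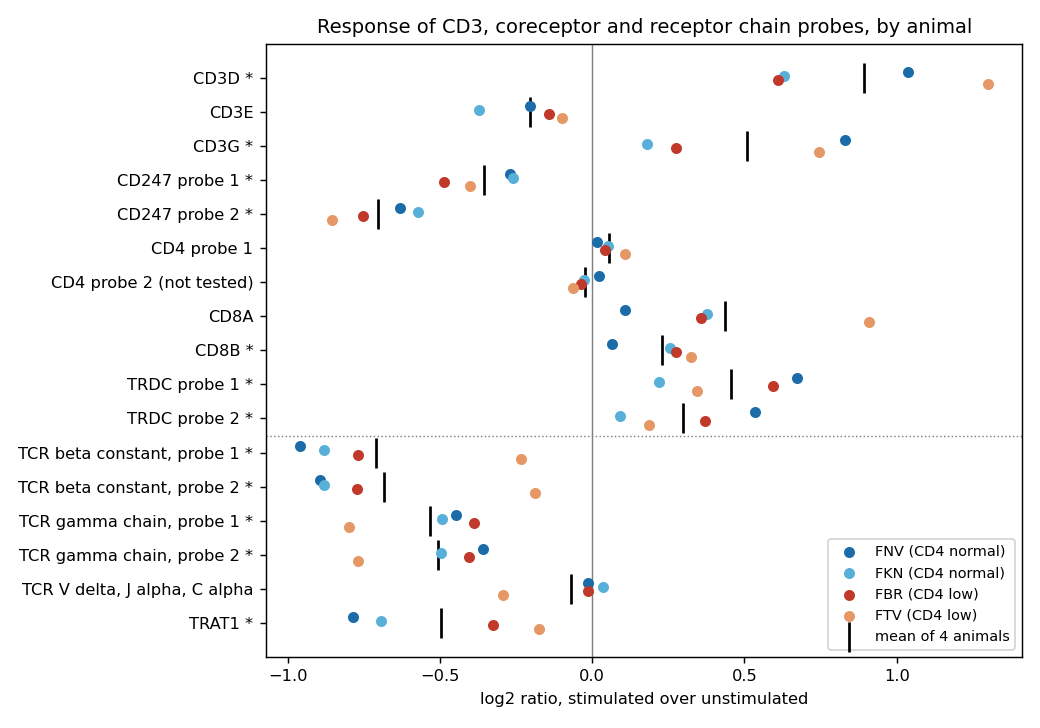
Log2 ratio of stimulated over unstimulated signal (x axis) for each probe (rows), with 1 point per animal and a black bar at the mean of 4 animals; an asterisk marks limma adjusted p under 0.05. The 11 rows above the dotted line are the CD3, coreceptor and TRDC probes, in which CD3D (mean 0.89) and CD247 probe 2 (mean -0.70) lie farthest from 0; the rows below it are other receptor chains.

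Taken within each animal, CD3D exceeded CD3E by 1.24 in FNV, 1.00 in FKN, 0.75 in FBR and 1.40 in FTV. The mean difference was 1.10 ± 0.28 (SD, n = 4). CD3D exceeded CD247 probe 1 by 1.25 ± 0.35 and CD3G by 0.39 ± 0.15, and CD3G exceeded CD247 probe 1 by 0.86 ± 0.33, each in 4 of 4 animals. CD3E lay below CD3G by 0.71 ± 0.28 in 4 of 4 animals. CD3E minus CD247 probe 1 was 0.15 ± 0.21, with 3 of 4 animals above 0. An exact sign-flip permutation test (two-sided) gave 0.13 for the first 5 pairs, the smallest value 4 animals allow, and 0.375 for the last; adjusted over the 6 pairs these were 0.15 and 0.375, so no pair could have passed at 0.05.

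The direction of each chain did not depend on the dye. CD3D gave 1.03 and 1.04 in FNV, 0.69 and 0.57 in FKN, 0.60 and 0.62 in FBR, and 1.34 and 1.26 in FTV with the stimulated RNA in Cy5 and in Cy3. On the 8 self-self arrays, where both colours carry the same RNA, the CD3D ratio ran from -0.05 to 0.11, and that of CD247 probe 2 from -0.21 to 0.01. Every ratio array lay outside those ranges for both probes. CD3E was different: its self-self ratios ran from -0.05 to 0.19 and its ratio arrays from -0.37 to -0.04, so the ranges overlapped. On 1 ratio array of FNV the title and a characteristic name opposite RNAs for Cy5; read by its title, it correlated at 0.92 with the other orientation over all tested probes, and the other 3 animals gave 0.93 to 0.94.

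**Figure D2:**
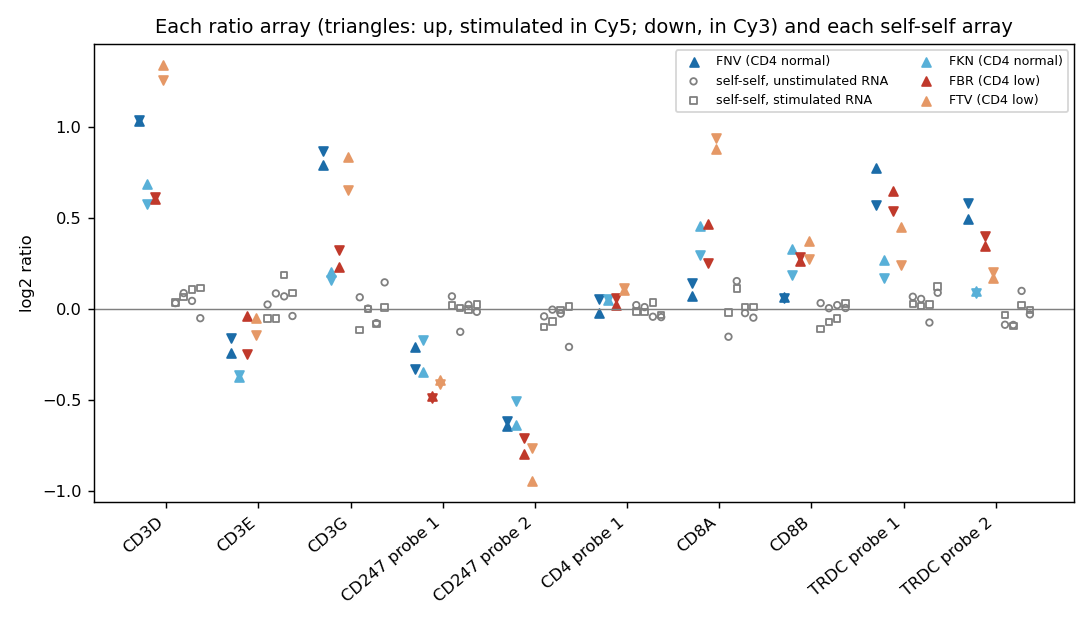
Log2 ratio (y axis) of each tested member probe on every array. Coloured triangles are ratio arrays, turned to stimulated over unstimulated, and grey open symbols are the 8 self-self arrays (Cy5 over Cy3). For CD3D the triangles lie from 0.57 to 1.34 and the grey symbols from -0.05 to 0.11.

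The coreceptors were chosen against at the protein level. Their RNA is given gene by gene, and the responses of different coreceptors were not tested against each other. CD4 did not pass the test. CD4 probe 1, well above background in all 16 unstimulated and all 16 stimulated channels, responded at 0.02 in FNV, 0.05 in FKN, 0.04 in FBR and 0.11 in FTV. The mean was 0.05 ± 0.04 (SD, n = 4), the limma adjusted p was 0.423, and the 95% interval ran from -0.07 to 0.18. Its unstimulated level was 9.42 in FNV, 9.06 in FKN, 9.40 in FBR and 9.07 in FTV.

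CD4 probe 2, whose sequence is printed above, was well above background in 0 of 16 unstimulated and 0 of 16 stimulated channels, with unstimulated levels of 5.943 to 6.001. The 2 probes of CD4 therefore disagree on whether CD4 RNA was measurable: one had signal in every channel and the other in none. Their binding to mangabey CD4 RNA was not tested. Monocytes also carry CD4 in primates, and monocyte markers were measurable: all 7 with a probe were tested, with a summed signal of 4661 to 107972 in unstimulated and 3613 to 37383 in stimulated cells. FNV held both of the highest sums, of which LYZ alone made 84.9% and 80.5%, while its CD4 probe 1 level lay 0.25 above the mean of the other animals before and 0.59 above it after stimulation. Without its dim self-self array the stimulated CD4 probe 1 level of FNV was 9.29 in place of 9.75. The part of these markers in the CD4 signal was not tested.

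CD8A, which encodes the alpha chain of the CD8 dimer and can also form CD8 homodimers, responded at 0.11 in FNV, 0.38 in FKN, 0.36 in FBR and 0.91 in FTV. All 4 animals were above 0 and FTV was highest, but the mean of 0.44 ± 0.34 (SD, n = 4) had an adjusted p of 0.0519 by limma. Both FNV ratio arrays, at 0.072 and 0.144, lay within the range of the probe's self-self arrays, -0.153 to 0.153. The probe, found by its wording, was well above background in all 16 stimulated channels and in 11 of 16 unstimulated ones, which were 4 of 4 in FNV and FTV, 2 of 4 in FBR and 1 of 4 in FKN. The size of its ratio differed with the source of the ratio, for a reason that was not tested. With no background correction the mean was 0.45, with a limma adjusted p of 0.0504. With the scanner software's own ratio the 4 animals gave 0.24, 1.71, 1.85 and 2.52, a mean of 1.58 ± 0.96 (SD, n = 4) with a limma adjusted p of 0.0195. The authors' deposited table lists CD8A at 2.10 in FKN, 1.71 in FBR and 2.52 in FTV, with no value for FNV. Without FNV the response computed here was 0.55, with a limma adjusted p of 0.0236.

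CD8B, the beta chain of the CD8 dimer, rose. It responded at 0.06 in FNV, 0.26 in FKN, 0.27 in FBR and 0.32 in FTV, a mean of 0.23 ± 0.11 (SD, n = 4) and a limma adjusted p of 0.0402. The call was lost without FKN (limma adjusted p = 0.15), without FBR (0.149 by limma) and without FTV (0.136 by limma). The scanner software's ratio gave 0.44. With all 4 animals the call was lost with median centring, at 0.16 (limma adjusted p = 0.383). It was also lost on self-self arrays with animal as a replicate block, at 0.11 (limma adjusted p = 0.581). The authors' deposited table gave a limma adjusted p of 0.0627. Of 14 alternatives, 7 kept the call. In FNV the level of CD8B was 7.83 before and 7.68 after stimulation, so level and ratio differed in direction there. For either CD8 gene FNV had the smallest response and the highest level.

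TRDC rose on both probes, which were found by their wording. Probe 1 responded at 0.67 in FNV, 0.22 in FKN, 0.59 in FBR and 0.34 in FTV, and probe 2 at 0.54, 0.09, 0.37 and 0.19 in the same order. The animals ranked alike on both probes, with FNV highest and FKN lowest. For probe 2 both FKN ratio arrays, at 0.098 and 0.086, lay within the range of its self-self arrays, -0.094 to 0.099. For probe 1 every ratio array lay above its self-self range of -0.075 to 0.122. Probe 1 had a mean of 0.46 ± 0.21 (SD, n = 4) and a limma adjusted p of 0.0154, and probe 2 a mean of 0.30 ± 0.20 (SD, n = 4) and a limma adjusted p of 0.0472. Without FBR the limma adjusted p of probe 1 was 0.0746. The call of probe 2 was lost without any 1 animal, at limma adjusted p of 0.0666 to 0.163. With the scanner software's ratio probe 2 gave 0.83 and probe 1 gave 0.73. The authors' deposited table holds 1 identifier for both probes and lists it at 1.05, 0.39, 0.91 and 0.61 in FNV, FKN, FBR and FTV.

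The other receptor chains are known here only from the wording of their probes. Both probes for the beta chain's constant part fell: probe 1 responded at -0.96 in FNV, -0.88 in FKN, -0.77 in FBR and -0.23 in FTV, with a limma adjusted p of 0.0113. FTV stood nearest to 0. Both T cell receptor gamma chain probes fell, with means of -0.53 ± 0.18 and -0.51 ± 0.18 (SD, n = 4; limma adjusted p = 0.00685 and 0.00815), and FTV was lowest at -0.80 and -0.77. The delta chain thus rose on its probes while the gamma chain it pairs with fell. FTV also had the highest unstimulated gamma chain level, 10.85 on probe 1 against 8.92 to 9.29 in the other animals. A probe described as a rearranged delta variable and alpha constant chain gave -0.07 ± 0.15 (SD, n = 4; limma adjusted p = 0.477).

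Before stimulation the CD3 chains were lower in FNV, and the CD8 chains and TRDC higher, than in the other 3 animals. CD3E had an unstimulated level of 12.29 in FNV, against 13.29 in FKN, 13.16 in FBR and 13.29 in FTV. CD3D was at 14.11 in FNV, 14.93 in FKN, 14.97 in FBR and 14.59 in FTV. FNV was lowest for all 5 CD3 complex probes and highest for the other 6. The CD4 probes add little to that ranking. CD4 probe 1 was at 9.425 in FNV and 9.400 in FBR, and CD4 probe 2 was not well above background in any channel. CD8A was at 7.83 in FNV and at 6.14 to 6.19 in the other animals. CD8B was at 7.83 in FNV and at 6.93 to 7.15 in the other animals. TRDC probe 1 was at 8.64 in FNV and at 6.81 to 7.09 in the other animals. The T cell receptor gamma chain was not higher in FNV. Its probe 1 was at 9.05, within the 8.92 to 10.85 of the other animals. Its probe 2 was at 8.04, against 8.58 to 10.17. Both probes for the beta chain's constant part were lowest in FNV, at 14.36 (15.17 to 15.83 in the others) and 13.39 (14.86 to 15.44). Among FKN, FBR and FTV the unstimulated levels of CD3E differed by at most 0.13. In a bulk sample fewer cells of a type and less RNA per cell cannot be told apart.

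**Figure D3:**
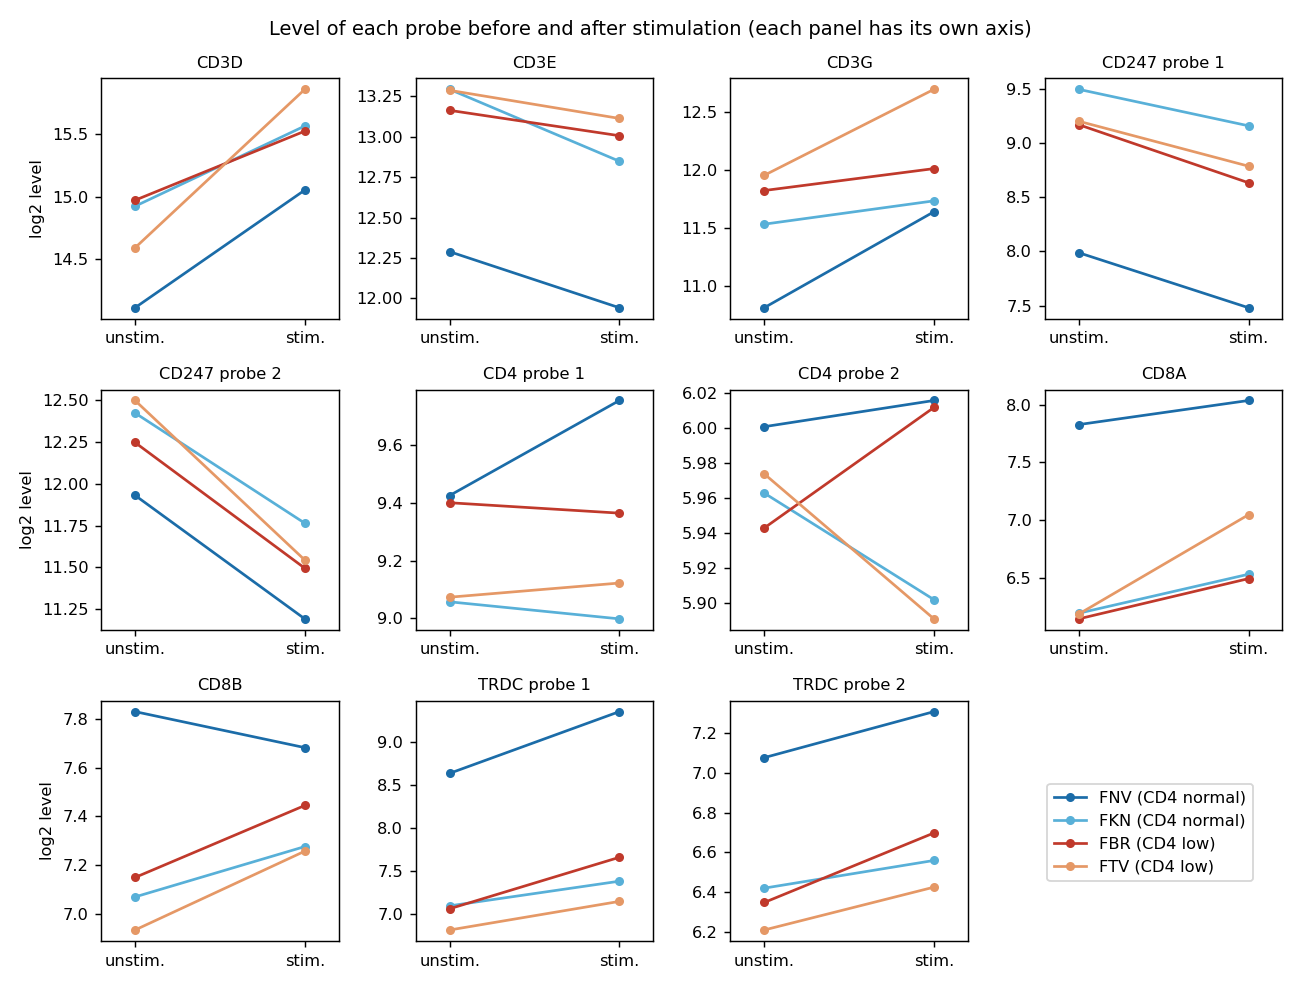
Log2 level (y axis, its own range in each panel) of the 11 probes in unstimulated and stimulated cells, 1 line per animal, each point the mean of 4 channels. FNV lies lowest in the CD3D, CD3E, CD3G and CD247 panels (except that its stimulated CD3G level without its dim self-self array is 11.76, above 11.73 in FKN) and highest in the CD8A panel (7.83 before and 8.04 after stimulation, against at most 6.19 and 7.05 in the other animals).

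Markers of other blood cells moved with FNV too. Its summed unstimulated signal was 16068 for the B cell list (1947 to 3453 in the other animals) and 107972 for the monocyte list (4661 to 9913). LYZ, the lysozyme of monocytes, was at 16.48 in FNV against 10.41 to 12.65, and without it the monocyte sum was 16285 in FNV, 7985 in FTV, 3500 in FKN and 3302 in FBR. The NK cell list summed to 11319 in FNV and 7203 in FTV, against 1213 and 1832 in FBR and FKN. In FNV 95.2% of that sum was TYROBP, an adaptor that myeloid cells also express, and without it FNV summed to 539, FKN to 424, FBR to 382 and FTV to 4885. NCR3, another gene of the list, was lowest in FNV, at 6.73 against 7.18 to 7.31. KLRD1, a receptor subunit of NK cells and some T cells, was at 12.04 in FTV and 6.35 to 7.48 in the other animals. The sum for red cells and platelets was 6257 in FNV against 27348 to 44596, and the haemoglobin genes HBA2 and HBB carried that gap. Without them the sum of FNV, 760, lay between those of FBR (612) and FTV (812). Among the NK cell genes, NCR2 was well above background in no channel. The part of other cells in the member levels was not tested.

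Over the lists, 1 B cell gene rose and 2 fell of 5 tested, 4 of 7 monocyte genes fell, 1 of 5 NK cell genes fell and 1 of 6 red cell and platelet genes fell, against 20.4% of all tested probes. CD79B, a signalling chain of the B cell receptor, fell by 2.60 on the log2 scale with a limma adjusted p of 0.000669. The median responses of these lists were -0.11, -0.87, -0.08 and -0.17. The members of the list of conventional CD4 or CD8 cells that had a named probe came to CD4 alone.

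**Figure D4:**
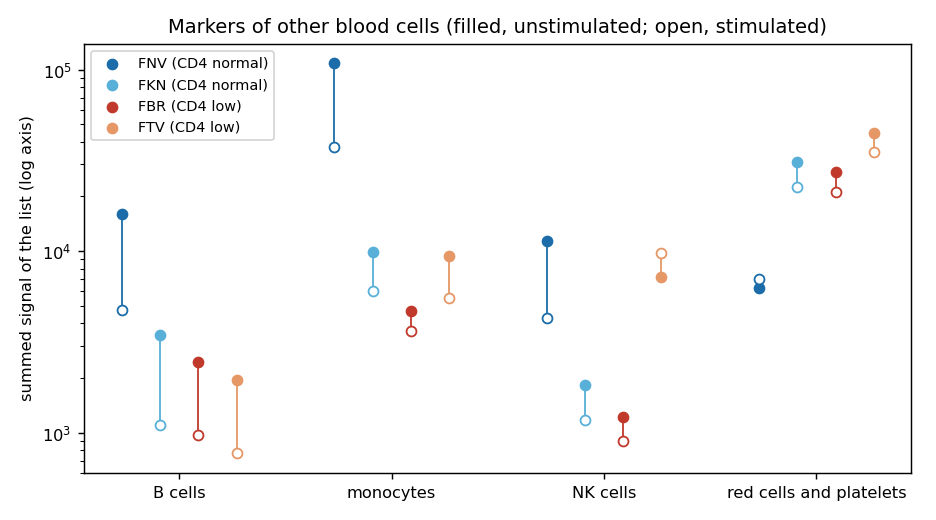
Summed linear signal of the tested markers of 4 other kinds of blood cell (log y axis), by animal, with filled points for unstimulated and open points for stimulated cells. FNV has the highest unstimulated sums for B cells (16068), monocytes (107972, of which LYZ is 84.9%) and NK cells (11319, of which TYROBP is 95.2%).

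CD4 status was compared as 2 low animals minus 2 normal ones. None of the 10 member probes passed for response, unstimulated level or stimulated level, and 0% of the 27493 tested probes passed in each by limma. At an unadjusted p under 0.05, limma gave 594, 454 and 529 probes over the array, and 0 member probes in each. Each array count is below the share of 0.05 that chance alone gives, so 0 member probes is no contrast with the array. For CD247 probe 2 the response was -0.80 in low and -0.60 in normal animals, a difference of -0.20 with a 95% interval of -0.54 to 0.13. For CD3D the responses were 0.96 and 0.83, and the interval of the difference ran from -0.66 to 0.90. For CD4 probe 1 the unstimulated levels were 9.24 and 9.24, and the interval ran from -0.74 to 0.73. The interval for the unstimulated level of TRDC probe 1 ran from -2.40 to 0.53. Leaving out FKN, which makes FNV the only normal animal, 3 of 10 members passed for the stimulated level (CD3E, CD247 probe 1 and TRDC probe 1), beside 20.2% of all tested probes.

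Other genes of the pathway were read from lists, by 1 probe per gene. Beside them, 19.9% of all tested probes rose and 20.4% fell. Of 21 tested genes of proximal receptor signalling, the kinases, adaptors and phosphatases that act next to the CD3 chains, 4 rose, 6 fell and 11 did not pass, with a median of -0.21. SLA, an adaptor that promotes turnover of the receptor, rose by 1.93 ± 0.15 (SD, n = 4; limma adjusted p = 0.000467). PRKCQ, a kinase downstream of CD28, rose by 0.80 ± 0.35 and RHOH, a small GTPase that recruits ZAP70, by 0.74 ± 0.34 (limma adjusted p = 0.00957 and 0.011). SIT1, a transmembrane adaptor that dampens receptor signals, fell by 1.97 on the log2 scale, SLA2 fell by 1.18 and SYK fell by 0.98. LCK, the coreceptor-bound kinase that phosphorylates ITAMs, fell by 0.66 ± 0.29 (SD, n = 4; limma adjusted p = 0.0103). ZAP70, which binds phosphorylated ITAMs, had a mean of 0.11 ± 0.30 (SD, n = 4; limma adjusted p = 0.518).

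Among 9 tested surface partners of the receptor, 1 rose, 6 fell and 2 did not pass, with a median of -0.67. Of all tested probes, 19.9% rose and 20.4% fell. CD27, a costimulatory receptor, fell by 1.78 on the log2 scale, CD52 fell by 1.37 and CD5, an inhibitor of receptor signals, fell by 1.00. CD2, an adhesion receptor, rose by 0.33 ± 0.19 (SD, n = 4; limma adjusted p = 0.0344). Among 7 tested transcription factors of the coreceptor lineages, 3 rose and 2 fell, beside those same shares of all tested probes. SATB1, a chromatin organiser of T cell development, rose by 1.88 ± 0.31, RUNX1 by 1.04 ± 0.20 and TOX by 0.30 ± 0.17 (SD, n = 4). LEF1 fell by 1.05 and BCL11B fell by 1.03. ZBTB7B, the factor that directs cells to the CD4 lineage, had a mean of -0.18 ± 0.13 (SD, n = 4; limma adjusted p = 0.0857).

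Of 6 tested genes of gamma delta and innate-like T cells, 2 rose and 1 fell, beside 19.9% and 20.4% of all tested probes. IL23R, a subunit of the interleukin-23 receptor, rose by 0.48 ± 0.36 and IL18R1, a subunit of the interleukin-18 receptor, by 0.29 ± 0.16 (SD, n = 4; limma adjusted p = 0.0485 and 0.0347). SOX13, a factor of gamma delta T cells, fell by 0.80. ZBTB16, the factor of innate-like T cells, was at -0.001 ± 0.071 (SD, n = 4; limma adjusted p = 0.986). Of the list of receptor chains, TRAT1, which stabilises the receptor at the surface, fell by 0.50 with a limma adjusted p of 0.0256, and PTCRA did not pass.

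**Figure D5:**
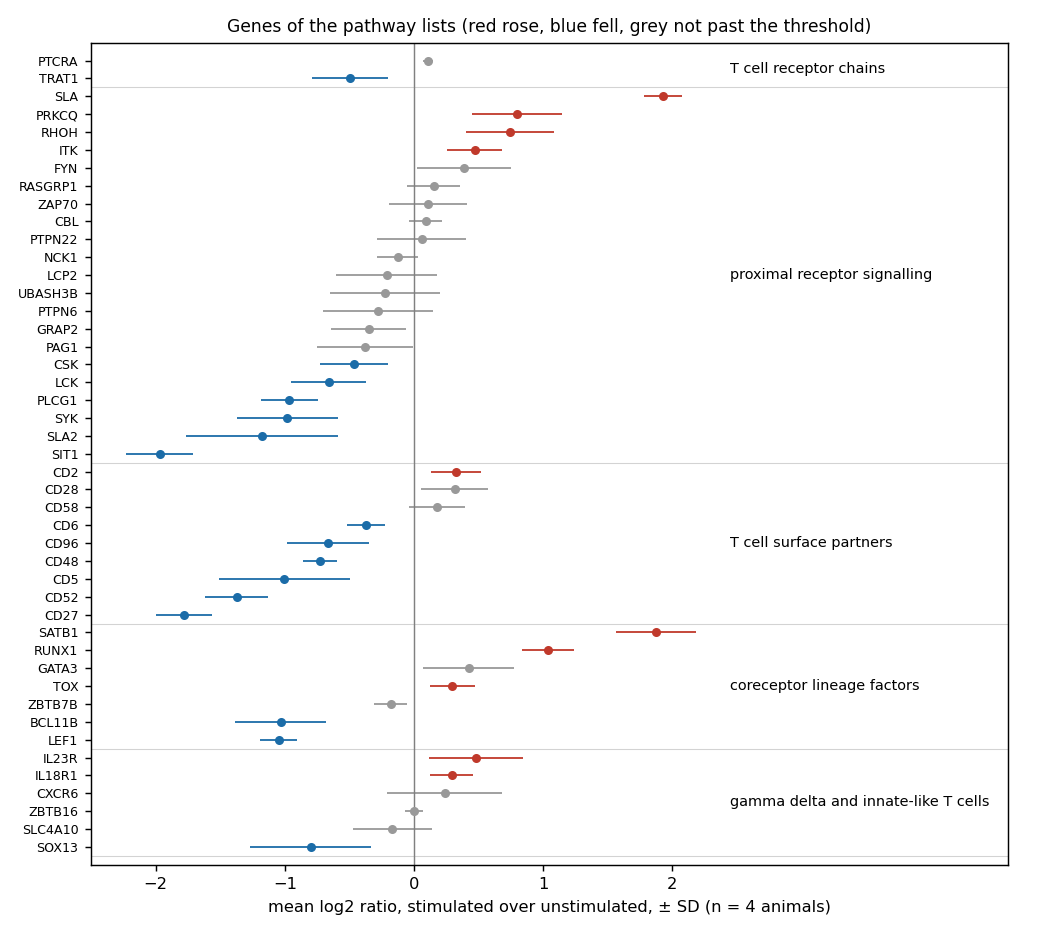
Mean response (log2 ratio, x axis) with SD over 4 animals for each tested gene of 5 lists, coloured by whether it rose, fell or did not pass limma's adjusted threshold. SLA (1.93) and SIT1 (-1.97) lie at the ends of the signalling list and CD27 (-1.78) at the lower end of the surface partners.

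The named genes whose levels ran most like each member over the 8 values of 4 animals and 2 conditions were ANP32E for CD3D (Pearson r = 0.988), KDM2A and the mitochondrial ND1 for CD3E (0.991 each), BAHD1 and PIM1 for CD3G (0.973 each) and CDIPT for CD247 probe 1 (0.993). They were VTN for CD4 probe 1 (0.985), WDR26 for CD8A (0.989), OCRL for CD8B (0.995) and AHCTF1 for TRDC probe 1 (0.995). The 8 values share 4 animals and 1 scan that sets FNV apart, so these are descriptions with no test.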

How the data were processed

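The authors deposited, per the file headers, scanner output from Agilent Feature Extraction 10.7.3.1 with spot and background intensity on a linear scale and the software's log10 ratio of red over green. The authors also deposited a table of log2 ratios of stimulated over unstimulated per animal, made and normalised before deposit per its file header, by a method not given in the sources used here. In R 4.3.3 with limma 3.58.1, intensities were corrected by normexp (offset 50) and loess within array; control and outlier spots had weight 0 and outlier spots were left out. After seeing the data, 3, 6 and 37 spots of the stimulated self-self arrays of FNV, FKN and FTV, whose local background exceeded their signal by more than 50, were left out before normexp, since they distorted its fit; no ratio array held any. Spots of a probe were averaged, and so were both dye orientations per animal. Tested probes had signal well above background in 1 condition's channel of both dye orientations, in at least 2 animals. Levels used Aquantile. Responses were tested against 0 and by CD4 status (limma, Benjamini-Hochberg). The fit was tested on simulated data with a far smaller share of changed features and no scan batch. That simulation therefore does not check the calls made here. No spot was saturated.

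All member probes were described; of each list, the up to 3 largest changes each way past the threshold were named, with LCK, ZAP70, ZBTB7B, ZBTB16, PTCRA and the marker genes named after their values were seen; 1 gene of a list is not reported here. Members and lists were chosen with earlier results of these data known. Deviations of an animal's unstimulated and stimulated levels from the group means correlated at 0.79 to 0.84 in all 4 animals, which are the pairs. Levels of both conditions draw on the same ratio arrays of an animal, so this correlation cannot check the pairing.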

Additional observations from a re-analysis of the deposited data

Results flagged for a closer look

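In 3 of 33 sets of 4 animal values (responses and levels of the 11 probes), 1 animal lay farther from the others than Dixon's criterion allows; chance gives about 1 in 20. All were unstimulated levels with FNV apart: CD3E at 12.289 (nearest other animal 13.164), CD8A at 7.827 (nearest 6.191, with the other animals near background: 1 of 4 unstimulated channels well above it in FKN and 2 of 4 in FBR) and TRDC probe 1 at 8.638 (nearest 7.09).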

How the results depend on the processing

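Over the 14 alternatives no response of the 10 tested members changed sign; of 140 values, 99 kept their side of the threshold, 34 lost it and 7 gained it. The count of 7 members past the threshold was 5 to 8 under the other settings, except for 1 with median centring in place of loess (CD3D alone) and 1 with self-self arrays and no replicate block (CD247 probe 2 alone); with animal as a replicate block it was 6. It ranged from 2 to 6 with 1 animal left out: 2 without FBR, 4 without FTV. Calls over all probes moved too, from 40.3% to 17.6% with median centring, 7.71% and 29.7% with self-self arrays without and with the block, 22.7% without FBR, 25.9% without FTV, 21.1% without FKN and 51.2% without FNV. The causes were not tested. Among CD4 status results, the stimulated level ranged from 0 to 3 with 1 animal left out, 3 being without FKN, where 20.2% of all probes passed (the lone animal of a status was assumed to vary like the pair); all other settings gave 0, including 2 chosen after seeing the data: normexp on all spots, and leaving out the dim FNV array. No difference between CD3 chains changed sign, also with CD247 probe 2, chosen after seeing the data. Dim signal limits CD8A, CD8B and TRDC.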
